A study of Mus musculus with 6 samples.

Results

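The enzymes described here carry glucose through glycolysis to pyruvate and lactate, divert it into the pentose phosphate pathway, or store and release it as glycogen. They were taken by name: 39 gene symbols were looked up in a table of 38207 genes, and all 39 were present. Aldoa occupied a pair of rows, the second of which held 1 count in 1 library, so the members filled 40 rows. The libraries came from microglia, the resident macrophages of the brain, of wild-type (WT) mice. There were 3 libraries from sham-operated mice and 3 from mice after tMCAO, the usual abbreviation of transient middle cerebral artery occlusion, a stroke model in which blood flow through a large brain artery is blocked and restored. Each library held material from 30 mice, and sham and tMCAO animals shared the same genotype label. Strain, age, sex, time after surgery, the way the cells were isolated and whether the same operator or day served both groups are not stated by the labels. The labels name microglia as the cell type, while the extraction text speaks of tissue.

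RNA was turned into cDNA, amplified by PCR and sequenced on nanopores, and each value is a read count per gene or its CPM (the count scaled to the library's total reads). CPM is not divided by gene length, and it is used here mainly to compare 1 gene between libraries and not to rank single genes. Sums and shares over several genes are likewise not corrected for length. Totals were 2371235 to 2614512 counts in sham and 1855495 to 2030550 in tMCAO. Summed over 12 microglial marker genes the level was 37875 to 39117 CPM in sham and 35369 to 38758 CPM in tMCAO, so the labelled cell type was present in all 6 libraries. With TMM-scaled sizes this sum was lower in tMCAO, at 39911 to 42358 and 35283 to 37141, and 4 of the 12 genes were called lower: Siglech, P2ry12, Fcrls and Gpr34. Along the second principal component, which held 20.7% of the variance, tMCAO 3 stood apart at 54.3, with sham 1 next on its side at 13.5 and the other tMCAO libraries at the opposite end, at -31.8 and -24.7. Sums over markers of other cells and over cell-cycle genes separated the groups for some lists and overlapped for others. The summed astrocyte markers were 145 to 432 CPM in sham and 70.9 to 93.8 CPM in tMCAO, with 3 of 5 tested genes lower. Aldoc, a glycolytic isozyme described below, is on this list and is among those lower. The border macrophage markers summed to 283 to 370 CPM in sham and 610 to 724 CPM in tMCAO, with 5 of 8 tested genes higher. Pf4, Lyve1 and Cbr2 were not called, and Cbr2 went the other way, with a log2 fold change of -0.68. For these counts of marker genes, 9.17% of all tested genes were called higher and 8.96% lower. Of 8528 annotated genes, 974 were higher and 488 lower. Monocyte markers summed to 77.6 to 93.2 CPM and 92.7 to 284 CPM, and cell-cycle genes to 84.0 to 86.5 CPM and 363 to 631 CPM. Choroid plexus markers summed to 13971, 44680 and 8636 CPM in sham and 2276, 4046 and 9974 CPM in tMCAO, with overlap, and exceeded the microglial sum in sham 2. Erythroid markers were at 955 to 6040 CPM in sham and 215 to 380 CPM in tMCAO, and neutrophil markers at 1885 to 2374 and 537 to 1930 CPM. Neuronal markers summed to 15.7 to 21.9 CPM in sham and 5.33 to 10.3 CPM in tMCAO, without overlap. The sums for oligodendrocytes, for endothelium and pericytes, and for T, NK and B cells overlapped. None of the genes on these lists was at 0 in all libraries, and the part of these cells in the results below was not tested. In such bulk samples, fewer cells of a type and less RNA per cell cannot be told apart.

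Glycolysis splits a glucose molecule into pyruvate and yields a little ATP without oxygen. Lactate dehydrogenase then turns pyruvate into lactate and regenerates NAD+, while the pyruvate dehydrogenase complex sends it into mitochondria. The pentose phosphate pathway branches off at glucose 6-phosphate, and its oxidative arm makes the NADPH that phagocyte oxidase and glutathione recycling consume. Glycogen is built by glycogen synthase and broken down by glycogen phosphorylase. In macrophages, inflammatory stimulation and hypoxia are both known to raise glycolytic flux, and tissues that export lactate are typically rich in the LDHA subunit.

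Most of these enzymes did not pass the test. With edgeR's quasi-likelihood test and Benjamini-Hochberg adjustment over all 13127 genes that passed the filter on low counts, 5 of 37 tested members were called at an adjusted p under 0.05, which is 13.5%, against 18.1% of all tested genes. Ldha, Pgam1 and Pfkfb3 were higher in tMCAO, and Ldhb and Gys1 were lower. By direction the background was 9.17% of genes higher and 8.96% lower. Among the 8528 annotated genes alone it was less even, with 974 called higher and 488 lower. The median log2 fold change of the 37 members was 0.15, where it was 0.00 over all tested genes and 0.09 over the 8528 annotated ones. The median absolute log2 fold change was 0.28, where it was 0.43 over all and 0.38 over annotated genes. A log2 change of at least 1 in size was seen in 2 members (5.41%), Gys1 and Pgls, against 17.5% of all tested genes. The 95% interval of the fold change lay within 2-fold in either direction for 23 of 37 members (62.2%), against 39.6% of genes, and within 1.5-fold for 10 of 37 (27.0%), against 9.08%. The width of an interval depends on read depth, and neither these shares nor those of change size or p were matched for level. For 14 members (37.8%) all tMCAO values were above all sham values in CPM, where 23.3% of all tested genes and 28.8% of the 8528 annotated ones did so. For 2 members (5.41%) all tMCAO values lay below, against 14.6% of all and 10.6% of annotated genes. Either kind of separation was seen in 37.8% of all tested genes, and 17.1% of the annotated ones were called. Separation was judged in CPM by library totals, for members and for all genes alike. With the TMM-scaled sizes of the fit, Aldoa, Pdk1, Pgd, Tkt, Taldo1 and Pgm1 overlapped between groups. An unadjusted p under 0.05 was reached by 8 of 37 members (21.6%), against 32.4% of genes: the 5 called and Hk3, Pfkfb4 and Pygl. Both DESeq2 and limma voom called Ldha, Ldhb and Gys1 alone among the members. Members on either side of the threshold were Pfkfb3, with an adjusted p of 0.0470, and Pfkfb4, with 0.0568.

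**Figure D1:**
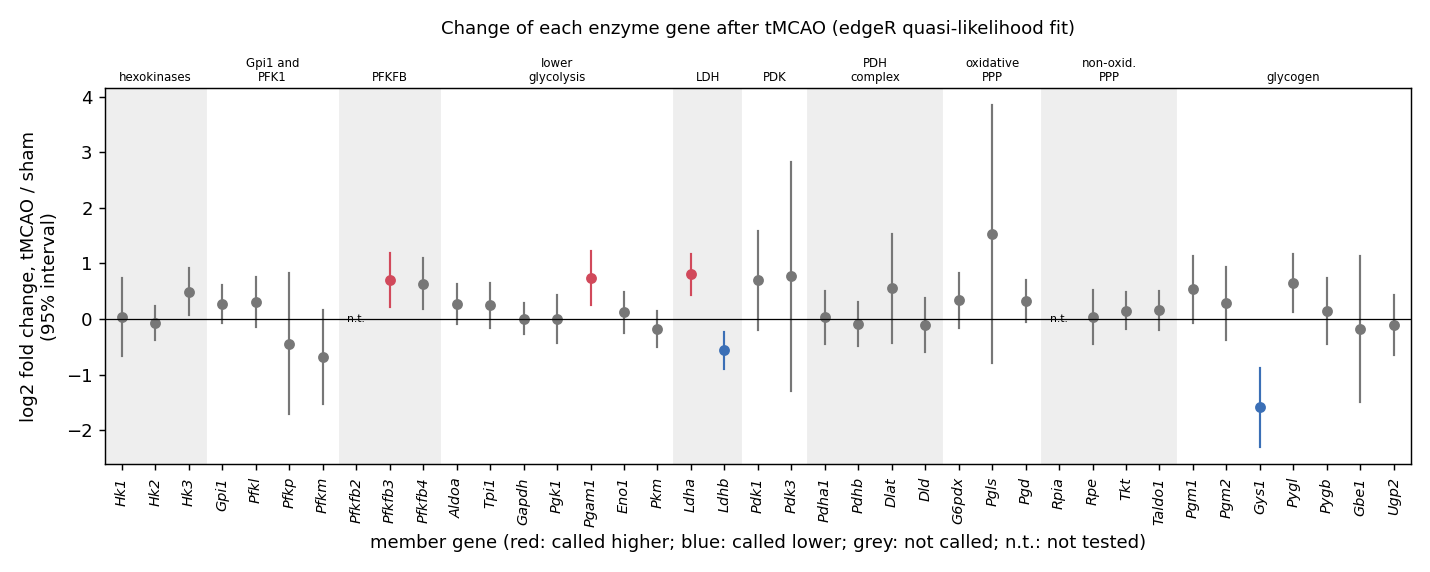
Log2 fold change, tMCAO against sham, of the 37 tested members with 95% intervals, grouped by role, with members called higher in red and lower in blue. Most intervals cross 0; Gys1 at -1.59 and Ldha at 0.81 are the called members farthest from 0, and Pgls and Pdk3 have the widest intervals.

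Ldha and Ldhb, the 2 lactate dehydrogenase genes, moved in opposite directions. Ldha (ENSMUSG00000063229) encodes the subunit that favours making lactate from pyruvate. Its level was 218, 224 and 207 CPM in sham 1 to 3 and 388, 356 and 481 CPM in tMCAO 1 to 3. All tMCAO libraries stood above all sham libraries, and the means rose from 216 ± 8.68 to 408 ± 65.0 CPM (SD, n = 3 each). The fitted difference, which uses TMM-scaled library sizes in place of the raw totals, was a log2 fold change of 0.81 ± 0.17 (SE), 1.75-fold with a 95% interval of 1.35 to 2.26, at an adjusted p of 0.00656. Ldhb (ENSMUSG00000030246) encodes the subunit that favours the reverse reaction, from lactate to pyruvate. It stood at 597, 677 and 651 CPM in sham and at 442, 442 and 526 CPM in tMCAO, again with no overlap. Its log2 fold change was -0.56 ± 0.15, or 0.677-fold with an interval of 0.538 to 0.852, at an adjusted p of 0.0231. The Ldha call held in 15 of 15 alternative settings. The Ldhb call was lost when any of sham 1, 2 or 3 or tMCAO 1 or 2 was left out, with adjusted p of 0.0539 to 0.0980.

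As a share of the reads of both genes, not corrected for length, Ldha was higher in every tMCAO library than in any sham library. It made up 517 of 1932 reads in sham 1, 564 of 2271 in sham 2 and 540 of 2242 in sham 3, or 26.8%, 24.8% and 24.1%. In tMCAO it made up 788 of 1686, 660 of 1481 and 903 of 1890 reads, or 46.7%, 44.6% and 47.8%. The mean share went from 25.2 ± 1.38% to 46.4 ± 1.64% (SD, n = 3 each), a difference of 21.1 percentage points. The highest upper bound of the exact 95% binomial intervals in sham was 28.8% and the lowest lower bound in tMCAO was 42.0%; these bounds cover counting error only. The summed level of the pair overlapped between groups, at 815, 900 and 858 CPM in sham and 830, 798 and 1007 CPM in tMCAO.

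**Figure D2:**
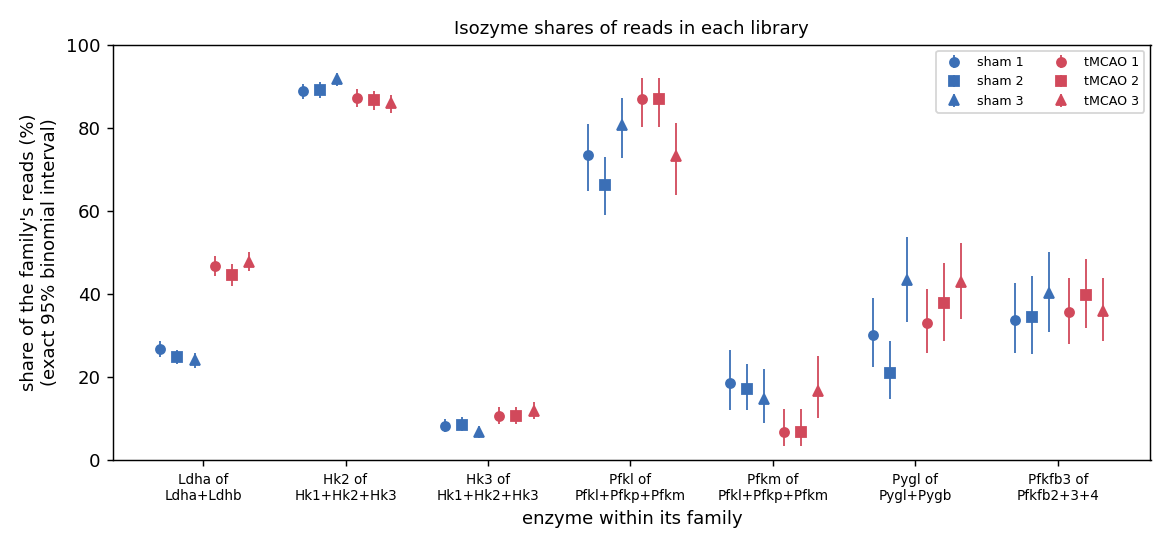
Share of reads (percent, vertical axis) taken by 1 isozyme within its family, 1 point per library, with exact 95% binomial intervals as bars. The Ldha share lies at 24.1 to 26.8% in the 3 sham libraries and at 44.6 to 47.8% in the 3 tMCAO libraries, while the phosphofructokinase, phosphorylase and PFKFB shares overlap.

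The promoter windows of the called members are printed because hypoxia-inducible factor is known to bind near many glycolytic genes through the letters ACGTG or GCGTG. RefSeq (build GRCm38.p6) gave windows for all 39 members, 55 in all, each running from 250 bases before to 50 bases after a transcript start. Capitals mark ACGTG or GCGTG on either strand, so that CACGT and CACGC are their reverse complements. The E-box CACGTG, which Myc and the carbohydrate response factors recognise, holds ACGTG on both strands and is counted in both motifs. Where a gene had several windows, the first in the RefSeq table is shown.
Ldha, chr7:46845554-46845853, plus strand: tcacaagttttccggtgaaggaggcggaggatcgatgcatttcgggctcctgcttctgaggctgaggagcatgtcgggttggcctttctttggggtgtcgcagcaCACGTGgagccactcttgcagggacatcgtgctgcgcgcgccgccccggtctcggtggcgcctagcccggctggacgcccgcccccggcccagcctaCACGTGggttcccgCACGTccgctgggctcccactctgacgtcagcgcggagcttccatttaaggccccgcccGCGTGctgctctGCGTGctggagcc
Ldhb, chr6:142507908-142508207, minus strand: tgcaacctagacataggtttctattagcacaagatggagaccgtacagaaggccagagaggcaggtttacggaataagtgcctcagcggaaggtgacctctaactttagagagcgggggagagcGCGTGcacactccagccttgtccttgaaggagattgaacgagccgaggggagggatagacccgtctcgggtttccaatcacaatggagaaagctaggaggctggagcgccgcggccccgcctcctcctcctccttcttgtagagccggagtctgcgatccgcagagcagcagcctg
Gys1, chr7:45434589-45434888, plus strand: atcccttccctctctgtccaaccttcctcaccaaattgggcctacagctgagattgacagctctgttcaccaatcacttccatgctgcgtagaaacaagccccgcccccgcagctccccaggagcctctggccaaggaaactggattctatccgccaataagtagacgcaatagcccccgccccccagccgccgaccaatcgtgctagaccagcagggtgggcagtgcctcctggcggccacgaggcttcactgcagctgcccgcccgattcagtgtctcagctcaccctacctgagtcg
Pgam1, chr19:41911621-41911920, plus strand: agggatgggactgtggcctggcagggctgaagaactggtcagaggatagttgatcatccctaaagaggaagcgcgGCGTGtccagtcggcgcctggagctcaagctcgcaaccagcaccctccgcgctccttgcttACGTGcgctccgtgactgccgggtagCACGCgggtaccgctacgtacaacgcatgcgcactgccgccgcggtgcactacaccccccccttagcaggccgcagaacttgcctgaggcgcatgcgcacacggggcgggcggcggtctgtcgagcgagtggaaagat
Pfkfb3, chr2:11553880-11554179, minus strand: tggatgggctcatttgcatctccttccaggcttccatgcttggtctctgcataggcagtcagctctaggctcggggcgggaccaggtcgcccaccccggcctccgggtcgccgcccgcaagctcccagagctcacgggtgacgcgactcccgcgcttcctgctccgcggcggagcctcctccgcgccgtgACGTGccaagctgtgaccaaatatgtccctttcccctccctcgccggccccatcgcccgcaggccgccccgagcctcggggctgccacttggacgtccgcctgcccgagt
The printed Ldha window held 5 matches of ACGTG counted over both strands and 2 of GCGTG. Of its capital runs 2 are CACGTG, each of which counts as 1 ACGTG match on each strand, so the matches are not separate sites. The other Ldha window, at a different transcript start, held GCGTG at 2 places and no ACGTG. The Ldhb window held 1 GCGTG and no ACGTG, and the Gys1 window held neither. Pgam1 had 1 ACGTG and 2 GCGTG, and this Pfkfb3 window had 1 ACGTG. The other Pfkfb3 window had 2 matches of ACGTG, which are the strands of 1 CACGTG, and GCGTG at 2 places. Differences between these genes thus depend on the window shown. Over the members, ACGTG was found in 24 of 55 windows (43.6%), against 19.6% of all 32851 windows of the same length, and GCGTG in 30 of 55 (54.5%), against 32.4%. CACGTG was found in 7.27% of member windows and 7.15% of all. TGACNNNGC, the core of the antioxidant response element, was found in 10.9% and 12.4%. Member windows were also richer in G and C, with a median of 60.7% against 52.7%, and held a median of 20 CG pairs against 7. These are letter matches and do not show that a factor binds.

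Hexokinases trap glucose in the cell as glucose 6-phosphate, and none of the 3 was called. Hk2, the inducible form that can sit on mitochondria, was read at 450, 375 and 434 CPM in sham and 422, 433 and 443 CPM in tMCAO. Its groups overlapped, with a log2 fold change of -0.07 ± 0.14 and an interval of 0.772 to 1.18-fold. Hk1, the broadly expressed form, stood at 14.3, 9.51 and 7.27 CPM in sham and 9.85, 12.9 and 11.7 CPM in tMCAO, with a log2 fold change of 0.03 ± 0.33. Hk3, a form found mainly in myeloid cells, was read at 41.8, 36.1 and 31.7 CPM in sham and 51.7, 53.9 and 61.2 CPM in tMCAO. These Hk3 values did not overlap, but its log2 fold change of 0.49 ± 0.20 had an adjusted p of 0.102, and it passed only with scaling by library totals, at 0.0435. As a share of all hexokinase reads, Hk3 was 8.26, 8.58 and 6.71% in sham and 10.7, 10.8 and 11.9% in tMCAO. Hk2 took 88.9, 89.2 and 91.8% in sham and 87.3, 86.6 and 85.8% in tMCAO.

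Phosphofructokinase commits sugar to glycolysis, and neither it nor the isomerase before it passed the test. Gpi1, the isomerase, was read at 183, 165 and 152 CPM in sham and 225, 206 and 224 CPM in tMCAO, without overlap, at a log2 fold change of 0.27 ± 0.16 and an adjusted p of 0.250. Pfkl, the liver-type subunit, was read at 38.4, 49.2 and 39.8 CPM in sham and 62.1, 67.9 and 42.1 CPM in tMCAO. Its value in tMCAO 3 lay among the sham values, and its log2 fold change was 0.30 ± 0.21. Pfkm, the muscle-type subunit, stood at 9.70, 12.7 and 7.27 CPM in sham and 4.92, 5.39 and 9.59 CPM in tMCAO, where again tMCAO 3 lay within the sham range (log2 fold change -0.69 ± 0.39, adjusted p 0.245). Pfkp, the platelet type, varied widely in sham, with 4.22, 12.3 and 2.29 CPM in sham and 4.43, 4.85 and 5.86 CPM in tMCAO. The Pfkl share of phosphofructokinase reads was 73.4, 66.3 and 80.6% in sham and 86.9, 86.9 and 73.1% in tMCAO, so its groups overlapped.

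The PFKFB enzymes set the level of fructose 2,6-bisphosphate, the strongest activator of phosphofructokinase, and both tested members were higher in every tMCAO library. Pfkfb3 (ENSMUSG00000026773), the form with the highest kinase activity, was read at 18.6, 14.7 and 16.4 CPM in sham and 26.1, 30.7 and 30.9 CPM in tMCAO. Its log2 fold change was 0.70 ± 0.23 at an adjusted p of 0.0470. That call held in 4 of 15 alternatives and was lost when any single library was left out, with adjusted p of 0.0513 to 0.130. Pfkfb4 stood at 35.0, 25.8 and 24.1 CPM in sham and 44.8, 45.3 and 52.2 CPM in tMCAO, with a log2 fold change of 0.63 ± 0.21 that did not pass (adjusted p 0.0568). Summed over the family, the level was 40.9 to 54.8 CPM in sham and 73.4 to 85.7 CPM in tMCAO. The Pfkfb3 share of the family's reads averaged 36.2 ± 3.47% in sham and 37.2 ± 2.36% in tMCAO. Pfkfb2 was too low to test, with 3, 5 and 1 counts in sham and 5, 2 and 5 in tMCAO.

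**Figure D3:**
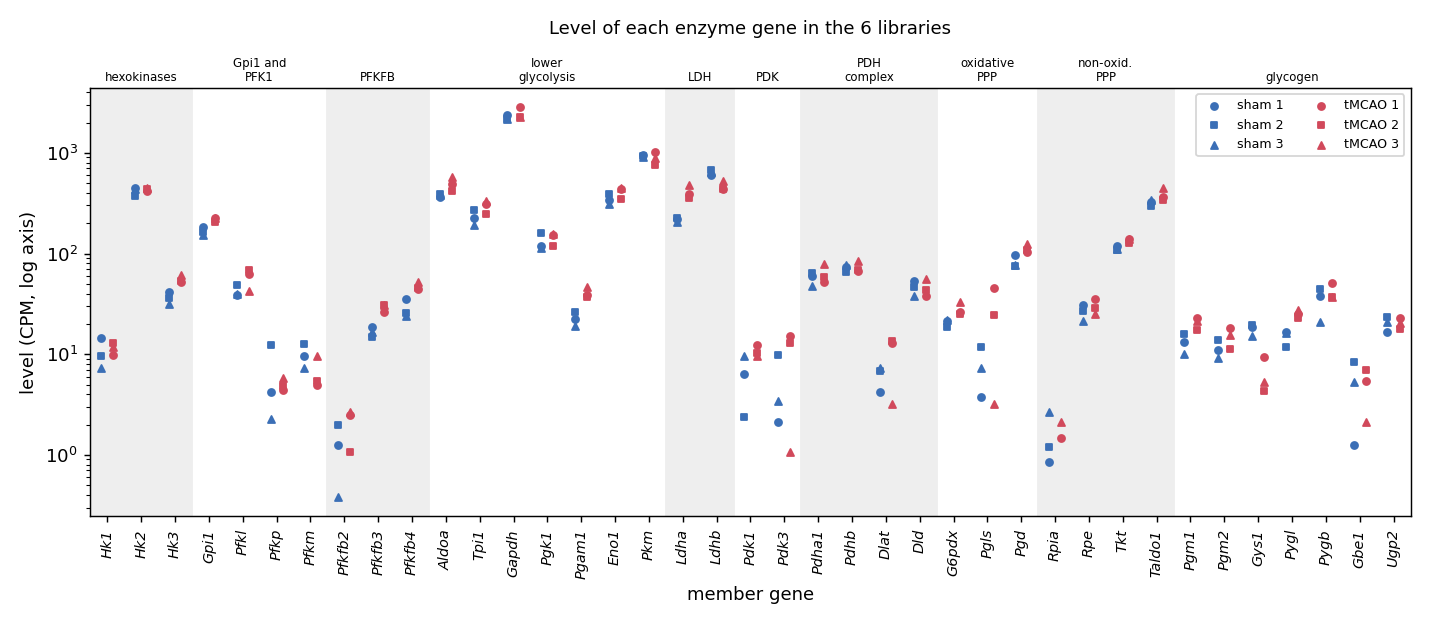
CPM of the members in each library on a log axis, grouped by role, with sham in blue and tMCAO in red. Ldha, Pgam1 and Pfkfb3 separate upward and Ldhb and Gys1 downward, while Gapdh, Pgk1 and Hk2 overlap; values of 0 have no place on the log axis, so Rpia has no point for tMCAO 2.

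Of the 7 enzymes between aldolase and pyruvate kinase, only Pgam1 was called in the fit with all libraries. Pgam1 (ENSMUSG00000011752), the mutase that moves the phosphate of 3-phosphoglycerate, was read at 22.4, 26.6 and 19.1 CPM in sham and 38.9, 37.2 and 46.9 CPM in tMCAO, without overlap. Its log2 fold change was 0.73 ± 0.23, 1.66-fold with an interval of 1.18 to 2.34, at an adjusted p of 0.0405. The call held in 5 of 15 alternatives, and without any of sham 1, sham 3 or the tMCAO libraries it was lost, with adjusted p up to 0.204 over all alternatives. Gapdh, often used as a reference gene, was read at 2384, 2150 and 2194 CPM in sham and 2825, 2254 and 2270 CPM in tMCAO, with a log2 fold change of 0.01 ± 0.13 and an interval of 0.828 to 1.22-fold. Pgk1, which makes the first ATP of the pathway, had a log2 fold change of -0.00 ± 0.20. Pkm, pyruvate kinase, was read at 955, 931 and 903 CPM in sham and 1029, 756 and 888 CPM in tMCAO (log2 fold change -0.18 ± 0.15, adjusted p 0.434). Its M1 and M2 splice forms cannot be separated in counts per gene. Aldoa was at 366 to 391 CPM in sham and 415 to 569 CPM in tMCAO without overlap, but with TMM-scaled sizes its groups overlapped. Its log2 fold change of 0.27 ± 0.17 did not pass. Tpi1 (log2 fold change 0.25 ± 0.19) and Eno1 (log2 fold change 0.12 ± 0.17) overlapped between groups. Summed over the 7 enzymes the level was 4106 to 4415 CPM in sham and 4177 to 5285 CPM in tMCAO. Gapdh, Ldha, Eno1, Tpi1, Pgam1 and Aldoa have processed pseudogenes of near-identical sequence in the mouse genome, so reads may have been divided among copies. The named copies Eno1b, Pgk2 and Aldoart2 were listed at 0 in all libraries, Aldoart1 at 0.793 CPM in sham 2 and Gapdhs at 1.08 CPM in tMCAO 2 only.

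Past pyruvate, the gate into mitochondria gave no call. Pdk1, a kinase that switches off pyruvate dehydrogenase and a textbook hypoxia target, stood at 6.33, 2.38 and 9.56 CPM in sham and 12.3, 10.2 and 9.59 CPM in tMCAO. The tMCAO values were all above the sham values in CPM, the lowest of them only just above sham 3. With TMM-scaled sizes the Pdk1 groups overlapped, and its log2 fold change was 0.70 ± 0.41 (adjusted p 0.266). Pdk3 was read at 2.11, 9.91 and 3.44 CPM in sham and 15.3, 12.9 and 1.07 CPM in tMCAO (log2 fold change 0.76 ± 0.86, adjusted p 0.594). For the subunits of the complex, the log2 fold changes were 0.03 ± 0.22 for Pdha1, -0.09 ± 0.18 for Pdhb, 0.55 ± 0.45 for Dlat and -0.11 ± 0.23 for Dld, and all 4 overlapped.

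None of the 6 tested pentose phosphate enzymes passed the test. In G6pdx, Pgd, Tkt and Taldo1 all tMCAO values lay above all sham values in CPM, as they did in 23.3% of all tested genes and 28.8% of annotated ones. With TMM-scaled sizes only G6pdx stayed apart, and Pgd, Tkt and Taldo1 overlapped. G6pdx, the rate-limiting dehydrogenase of the oxidative arm, was read at 21.5, 18.6 and 21.8 CPM in sham and 26.1, 25.3 and 33.0 CPM in tMCAO. Its groups did not overlap, with a log2 fold change of 0.33 ± 0.23 and an adjusted p of 0.339. Pgd, the second NADPH-yielding step, stood at 95.7, 74.9 and 76.5 CPM in sham and 104, 108 and 123 CPM in tMCAO, also without overlap (log2 fold change 0.33 ± 0.18, adjusted p 0.216). Pgls, the lactonase between them, was read at 3.80, 11.9 and 7.27 CPM in sham and 45.8, 24.8 and 3.20 CPM in tMCAO. In tMCAO 3 it fell below every sham library, and the log2 fold change of 1.53 ± 0.91 had an adjusted p of 0.322. Leaving out tMCAO 3 gave Pgls a log2 fold change of 2.05 at an adjusted p of 0.0130, and leaving out sham 1 as well gave 1.69 at 0.0164. Summed over the 3 genes, the oxidative arm was at 105 to 121 CPM in sham and 158 to 176 CPM in tMCAO. In the non-oxidative arm, which reshuffles the pentoses, Tkt stood at 119, 109 and 111 CPM in sham and 139, 128 and 141 CPM in tMCAO, and Taldo1 at 323, 299 and 337 against 361, 341 and 449 CPM. Both had a log2 fold change of 0.15, with SE of 0.15 for Tkt and 0.16 for Taldo1. The summed level of this arm was 436 to 474 CPM in sham and 498 to 617 CPM in tMCAO by library totals, but with TMM-scaled sizes the groups overlapped, at 488 to 500 and 479 to 645. Rpe had a log2 fold change of 0.04 ± 0.23, and Rpia, with 2, 3 and 7 counts in sham and 3, 0 and 4 in tMCAO, was not tested.

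Gys1 (ENSMUSG00000003865), the glycogen synthase of tissues other than liver, had the largest change among the called members and was lower in all 3 tMCAO libraries than in any sham library. It was read at 18.6, 19.4 and 15.3 CPM in sham and 9.36, 4.31 and 5.33 CPM in tMCAO, which are 44, 49 and 40 against 19, 8 and 10 counts. The means were 17.8 ± 2.17 and 6.33 ± 2.67 CPM (SD, n = 3 each). Its log2 fold change was -1.59 ± 0.33, or 0.332-fold with an interval of 0.202 to 0.545, at an adjusted p of 0.00583, and the call held in 15 of 15 alternatives at log2 values of -1.95 to -1.35. An exon of Gys1 shares 290 bases with Ruvbl2 on the opposite strand, and whether counting used strand is not stated. Ruvbl2 itself had a log2 fold change of 0.08 ± 0.37 (adjusted p 0.904).

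On the breakdown side, Pygl, a glycogen phosphorylase, was read at 16.4, 11.9 and 16.1 CPM in sham and 25.1, 22.6 and 27.7 CPM in tMCAO. These values did not overlap, but the log2 fold change of 0.65 ± 0.24 did not pass (adjusted p 0.0802). Pygb, the brain form, overlapped at 38.0, 44.4 and 21.0 CPM in sham and 50.7, 37.2 and 36.7 CPM in tMCAO. Pgm1, which links glucose 1-phosphate and glucose 6-phosphate, was at 9.94 to 15.9 CPM in sham and 17.2 to 22.7 CPM in tMCAO without overlap. With TMM-scaled sizes the Pgm1 groups overlapped (log2 fold change 0.53 ± 0.28, adjusted p 0.204). Pgm2 (log2 fold change 0.28 ± 0.30), the branching enzyme Gbe1 (log2 fold change -0.18 ± 0.60) and Ugp2 (log2 fold change -0.11 ± 0.25), which makes the UDP-glucose that glycogen synthase uses, overlapped between groups.

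4 of 37 members had a level in tMCAO 3 under 0.5 times the mean of the other tMCAO libraries: Pdk3, Pgls, Dlat and Gbe1. This was 10.8% of members, against 14.1% of all tested genes. Dlat stood at 4.22, 6.74 and 7.27 CPM in sham and 12.8, 13.5 and 3.20 CPM in tMCAO. In each of the 4, sham 1 was likewise the lowest sham library, but how often this held over all tested genes was not counted. Sham 1 and tMCAO 3 lay on the same side of the second principal component, so the pattern may not be particular to these members. Hif1a, the hypoxia-inducible factor subunit, was also lowest in sham 1 and tMCAO 3 within its groups. It stood at 24.5, 44.0 and 29.5 CPM in sham and 128, 106 and 20.8 CPM in tMCAO. Its log2 fold change was 1.22 ± 0.69 (adjusted p 0.299), and without tMCAO 3 it was 1.69 at an adjusted p of 0.00155.

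Genes around these enzymes were read from lists of related proteins. For the counts that follow, 9.17% of all tested genes were called higher and 8.96% lower. Of the 8528 annotated genes, 974 were called higher and 488 lower. Among transporters of sugar, lactate and pyruvate, 12 of 19 listed genes were tested, 1 was higher and 1 lower. Slc2a6 (ENSMUSG00000036067), a lysosomal hexose transporter of inflammatory macrophages, was read at 2.53, 1.98 and 1.91 CPM in sham and 44.3, 47.4 and 35.1 CPM in tMCAO, a log2 fold change of 4.15 ± 0.29 at an adjusted p of 3.93e-06. Slc2a5 (ENSMUSG00000028976), the fructose transporter that marks microglia, was read at 352, 322 and 333 CPM in sham and 233, 205 and 247 CPM in tMCAO, a log2 fold change of -0.67 ± 0.15 at an adjusted p of 0.00965. Slc2a6 was called in 15 of 15 alternatives and Slc2a5 in 14, the exception being without sham 1 at 0.0526. Other microglial genes that were lower had log2 fold changes of a like or larger size, at -0.74 for P2ry12, -0.61 for Fcrls, -0.57 for Gpr34 and -1.07 for Siglech. The glucose transporter Slc2a1 was not called, at 27.4, 48.8 and 43.6 CPM in sham and 25.1, 46.3 and 27.2 CPM in tMCAO. Slc2a3, the high-affinity form, was at 4.64, 6.34 and 1.53 CPM in sham and 5.91, 6.47 and 7.46 CPM in tMCAO and was not called. The lactate exporter Slc16a3 stood at 8.01, 6.34 and 10.7 CPM in sham and 23.1, 12.4 and 9.05 CPM in tMCAO (log2 fold change 0.71 ± 0.36, adjusted p 0.196). Slc16a1 was too low to test.

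Of 23 other glycolytic isozymes on the list, 5 were tested and 1 was lower. This was Aldoc, the aldolase that marks astrocytes, at 112, 175 and 47.4 CPM in sham and 11.8, 18.3 and 11.2 CPM in tMCAO (log2 fold change -3.15 ± 0.58, adjusted p 0.0183). The summed astrocyte markers were 291, 432 and 145 CPM in sham and 70.9, 93.8 and 77.8 CPM in tMCAO. That sum includes Aldoc itself, so the 2 are not independent. The Aldoc call was lost without any 1 of the tMCAO libraries, at adjusted p of 0.0703 to 0.0959. Of 10 other pentose phosphate and ribose genes, 5 were tested and 1 was lower, Prpsap2, a regulator of ribose phosphate synthesis (log2 fold change -0.78 ± 0.21, adjusted p 0.0202). It was not called without sham 3 (0.0811) or without tMCAO 2 (0.0892).

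Of 23 other glycogen genes, 10 were tested and 3 were higher. Gaa (ENSMUSG00000025579), the lysosomal enzyme that digests glycogen, stood at 20.7, 17.0 and 19.5 CPM in sham and 46.3, 55.5 and 55.9 CPM in tMCAO (log2 fold change 1.35 ± 0.20, adjusted p 0.000846). Phka2, a regulatory subunit of phosphorylase kinase, was at 6.33, 7.13 and 3.82 CPM in sham and 21.7, 20.5 and 11.7 CPM in tMCAO (log2 fold change 1.51 ± 0.35, adjusted p 0.00987). Gyg, glycogenin, which primes new glycogen, was at 6.75, 9.91 and 6.88 CPM in sham and 20.2, 16.7 and 26.1 CPM in tMCAO (log2 fold change 1.30 ± 0.31, adjusted p 0.0125). Gys1 and Gyg, which both act in building glycogen, differed in direction. The Gyg call was lost without sham 1 (0.0650) or sham 3 (0.0571).

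**Figure D4:**
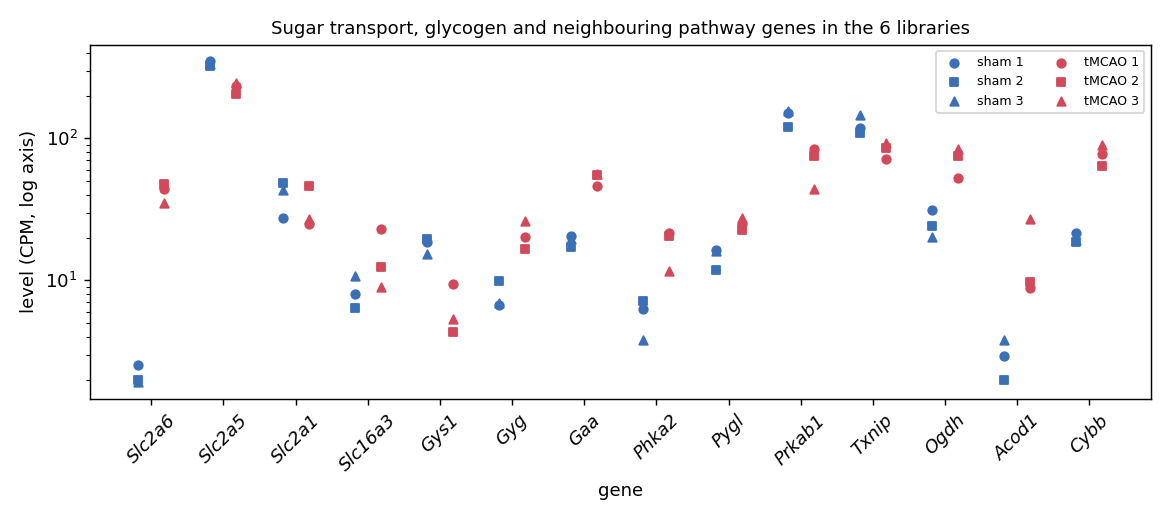
CPM on a log axis of 14 genes of sugar transport, glycogen and neighbouring pathways in each library, 1 point per library. Slc2a6 lies at 1.91 to 2.53 CPM in sham and 35.1 to 47.4 CPM in tMCAO, Gys1 is lower and Gyg, Gaa and Phka2 higher in all tMCAO libraries, and the Slc2a1 and Slc16a3 values overlap.

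Downstream in the citric acid cycle, 23 of 25 listed genes were tested, 3 were higher and 1 lower. Ogdh, the 2-oxoglutarate dehydrogenase, stood at 31.2, 24.2 and 20.3 CPM in sham and 52.2, 75.5 and 83.6 CPM in tMCAO (log2 fold change 1.37 ± 0.24, adjusted p 0.00219). Acod1, which diverts the cycle to itaconate in activated macrophages, was at 2.95, 1.98 and 3.82 CPM in sham and 8.86, 9.70 and 27.2 CPM in tMCAO (log2 fold change 2.26 ± 0.53, adjusted p 0.0130), a call lost without sham 1 (0.0588) or sham 2 (0.0528) and with limma voom (0.0576). Idh1, a cytosolic source of NADPH, passed narrowly at a log2 fold change of 0.70 ± 0.22 (adjusted p 0.0463) and was not called without sham 1, 2 or 3 or tMCAO 2 or 3, nor with all libraries under DESeq2 (0.0819), limma voom (0.0731), the replicate block (0.108) or upper-quartile scaling (0.0681). Mdh1, the cytosolic malate dehydrogenase, was lower, at 224, 298 and 184 CPM in sham and 132, 119 and 169 CPM in tMCAO (log2 fold change -0.87 ± 0.23, adjusted p 0.0218), and it was not called without sham 1 or 2 or tMCAO 1 or 2, or with the replicate block (0.0670). Of 6 gluconeogenic genes, 2 were tested and 1, Pck2, the mitochondrial PEP carboxykinase, was higher (log2 fold change 0.86 ± 0.19, adjusted p 0.00759).

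Among 18 tested hypoxia genes of 26 listed, 2 were called higher, where 9.17% of all tested genes and 974 of the 8528 annotated ones were. The log2 fold change was positive in 8 and negative in 10, with a median of -0.02. At an unadjusted p under 0.05 in the same test, 3 were higher and 4 lower. Hilpda, a hypoxia-inducible lipid droplet protein, was at 8.01, 11.9 and 13.8 CPM in sham and 32.5, 64.1 and 105 CPM in tMCAO (log2 fold change 2.47 ± 0.49, adjusted p 0.0144). It was not called without sham 1, 2 or 3 or tMCAO 2, at adjusted p of 0.0515 to 0.0653. Hif1an, which restrains HIF, was higher at a log2 fold change of 0.97 ± 0.29 (adjusted p 0.0329) and was not called without sham 1, 2 or 3 or tMCAO 2, nor with DESeq2 (0.101) or the replicate block (0.0689). Among 17 tested regulators of glycolysis of 20 listed, 2 were higher and 2 lower. Prkab1, a subunit of the energy sensor AMPK, stood at 151, 121 and 155 CPM in sham and 83.7, 74.9 and 43.7 CPM in tMCAO (log2 fold change -1.20 ± 0.21, adjusted p 0.00184). Txnip, which slows glucose uptake, stood at 119, 110 and 145 CPM in sham and 71.4, 85.7 and 93.2 CPM in tMCAO (log2 fold change -0.69 ± 0.18, adjusted p 0.0191), and was not called without sham 1 or 3 or tMCAO 1 or 2. Myc rose by 1.06 ± 0.30 on the log2 scale (adjusted p 0.0368), with its call lost without any library other than tMCAO 1, and with limma voom (0.0599) or upper-quartile scaling (0.0514). Mlxipl, a carbohydrate response factor, rose by 0.64 ± 0.19 on the log2 scale (adjusted p 0.0353), with its call lost without any library other than tMCAO 3, and with DESeq2 (0.0937), the replicate block (0.0755) or upper-quartile scaling (0.0599).

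Of 16 genes of NADPH oxidase, glutathione and thioredoxin metabolism, 14 were tested, 3 were higher and 1 lower. Cybb, the catalytic subunit of phagocyte NADPH oxidase, was at 21.5, 18.6 and 19.1 CPM in sham and 77.8, 64.1 and 90.0 CPM in tMCAO (log2 fold change 1.86 ± 0.21, adjusted p 0.000119). Txnrd1, thioredoxin reductase, stood at 8.86, 11.1 and 11.1 CPM in sham and 35.5, 24.8 and 16.0 CPM in tMCAO (log2 fold change 1.16 ± 0.30, adjusted p 0.0175), and was not called without sham 1 or 3 or tMCAO 1. Rac2, an oxidase regulator, was higher by 0.54 ± 0.17 on the log2 scale (adjusted p 0.0421) and was not called without any library other than tMCAO 2, nor with DESeq2 (0.0634), limma voom (0.0558), the replicate block (0.0669) or upper-quartile scaling (0.0779). Gclc, the first enzyme of glutathione synthesis, was lower, at 23.6, 20.2 and 21.8 CPM in sham and 14.3, 11.9 and 9.05 CPM in tMCAO (log2 fold change -1.01 ± 0.25, adjusted p 0.0155), and was not called without sham 1 or tMCAO 2. In the same libraries, G6pdx and Pgd, which make NADPH, did not pass the test.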

How the data were processed

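Read counts per gene and the matching CPM values were deposited by the authors in 1 table for the 6 libraries. Per the labels' protocols, cDNA-PCR nanopore libraries were made from TRIzol-extracted total RNA, and per the submitters' processing notes minimap2 was used. The minimap2 version, build, annotation and counting method (strand included) are not stated. The CPM that the authors deposited equal counts divided by each library's total. Of 38219 lines, 12 were continuations of a text field and not genes.

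Counts were fitted with edgeR 4.0.16 in R 4.3.3 (robust quasi-likelihood test on group alone, TMM scaling, filterByExpr with a minimum count of 10 and total of 15), and p-values were Benjamini-Hochberg adjusted over 13127 genes, with calls at 0.05. The biological coefficient of variation was 22.6%. SE is the log2 fold change divided by the root of F. DESeq2 1.42.0, limma 3.58.1 voom, other scalings and filters, a replicate block and left-out libraries were tried as alternatives. The test was checked on simulated counts. The members and lists were chosen with earlier results of these data known. Per-library values are given for each called member, for 14 members fixed by name and for the 4 uncalled members with the largest log2 fold change. From each list up to 4 called genes are named. Some of these have per-library values and the rest the fold change and adjusted p alone. How the mice were drawn into pools is not stated, so p-values measure only the spread between these pools. All 40 member identifiers matched GENCODE M21 with the same symbol, and 18 members overlap another gene's exons there.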

Additional observations from a re-analysis of the deposited data

How the results depend on the processing

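Members called higher (3) became 1 with upper-quartile scaling, DESeq2, limma voom or the replicate block, 5 with library totals only and 2 without sham 1 and tMCAO 3 together. Leaving out 1 library gave 1 to 2 higher and 1 to 2 lower members. Members called lower stayed at 2 in every setting that kept all 6 libraries and without sham 1 and tMCAO 3. Ldha and Gys1 were called in 15 of 15 alternatives. The 5 called members kept their direction in all 15, while uncalled members near 0 changed sign, such as Gbe1 (-0.65 to 0.42), Pygb (-0.14 to 0.40), Hk1 (-0.20 to 0.30), Pgk1 (-0.21 to 0.21) and Gapdh (-0.06 to 0.12). All genes called (2380) became 4039 without the low-count filter, 1573 without sham 1 and tMCAO 3, and 1254 to 2590 without 1 library. Library totals moved the median of all genes to 0.11 (log2) and the higher share of calls from 50.6% to 63.2%; upper-quartile scaling moved it to -0.07 and 42.2%. Whether equal replicate numbers pair the samples is not stated. Deviations of same-numbered libraries from their group means correlated at -0.21, 0.02 and -0.17. With 3 libraries per group these deviations constrain each other, so they cannot settle pairing. The replicate block gave 1662 calls, 1 member higher and 2 lower. Depth limits Pfkfb2 and Rpia, which had 0 to 7 counts in each library.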
